A study of Mus musculus with 2 samples.

Results

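The genes described here are 9 members of the Bcl2 family that decide between survival and death of a cell at its mitochondria. They were taken by name, 9 of the 32285 genes listed in the series, and all 9 had UMIs in both libraries: Bcl2, Bcl2l1, Mcl1, Bax, Bak1, Bid, Bcl2l11, Bbc3 and Pmaip1. They were followed across secretory (distal) luminal, proximal luminal, basal and stromal cells of the mouse prostate. The tissue came from wild-type male mice of the strain C57BL6. Cells of the ventral lobes gave 1 library, made with a 3' tag kit of 10x Genomics, version 2. Cells of the proximal and periurethral region, next to the urethra, gave the other, made with version 3. Effects of region and of kit therefore cannot be told apart, and no difference has a replicate check. The age of the mice and the number of animals behind each library are not given in the sources used here.

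In healthy cells the anti-apoptotic proteins Bcl2, Bcl-xL (from Bcl2l1) and Mcl1 bind and hold back the effectors Bax and Bak1, which otherwise open pores in the outer mitochondrial membrane and release cytochrome c. The BH3-only proteins Bid, Bim (from Bcl2l11), Puma (from Bbc3) and Noxa (from Pmaip1) respond to damage signals by occupying the anti-apoptotic proteins or by activating the effectors directly. In the prostate, secretory luminal cells are known to die by this route when androgen is withdrawn, whereas many basal cells survive. Much of the control of these proteins is exerted after transcription, so RNA levels do not give protein levels.

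The ventral matrix held 2221 barcodes with 49356586 UMIs (tags that count captured RNA molecules), and the proximal matrix 4344 barcodes with 97817603 UMIs, with 0 barcodes shared. After filtering, the ventral library gave 1628 distal luminal-like, 93 proximal luminal-like and 142 basal-like cells, and no stromal cluster. The proximal library gave 694, 1073 and 909 cells of these classes and 522 stromal-like cells, of which all but 6 were fibroblast-like. Median UMIs per cell ran from 4961 in ventral basal-like to 48705 in proximal distal luminal-like cells. The basal keratin Krt5 stood at 794 CPM (UMIs of a gene per 1000000 UMIs of the class) in ventral and 643 CPM in proximal basal-like cells and at most at 25.8 CPM in the other classes. Dcn, a fibroblast marker, reached 5156 CPM in ventral basal-like cells, where the collagen gene Col1a1 stood at 9.54 CPM against 659 CPM in stromal-like cells. The fibroblast markers together summed to 6263 CPM in these ventral cells and the basal markers to 4820 CPM, and the part of fibroblast RNA in the ventral basal values was not tested. Ventral proximal luminal-like cells held the distal luminal markers at 191704 CPM in sum and their own at 4339 CPM, whereas those of the proximal library held 1905 and 11678 CPM. The 2 most abundant secretory genes, Sbp and Spink1, took 45.7% of UMIs in ventral distal luminal-like cells and 16.2% in those of the proximal library, which lowers the CPM of every other gene there. They also took 18.9% of UMIs in ventral proximal luminal-like cells, 1.27% in the cluster led by Wfdc2 and 29.3% in the cluster led by Saa1. If all of this were free RNA, such RNA could bring 20.9% to 27.7% of the levels of Mcl1, Bax, Bak1, Bid, Bcl2l11 and Bbc3 in that class, and 4.21% to 10.9% of those of Bcl2, Bcl2l1 and Pmaip1. A list of 16 genes induced by dissociation, such as Fos and Hspa1a, summed to 5235, 13856 and 17337 CPM in ventral distal luminal-, proximal luminal- and basal-like cells. In the proximal library these sums were 15463, 17318 and 16874 CPM, and 20193 CPM in stromal-like cells. Of its genes, 5 and 8 were called higher, by the rule given below, in ventral proximal luminal- and basal-like than in distal luminal-like cells, and 0 lower. In proximal luminal-, basal- and stromal-like over distal luminal-like cells of the proximal library 1, 1 and 2 were called higher and 3, 1 and 3 lower. The shares of all genes called in these comparisons are given with the members. The ventral CPM of all 9 members was likewise lowest in distal luminal-like cells, and the part of dissociation stress and of secretory RNA in this was not tested.

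The letters upstream of the start site are shown for 3 members whose levels differed most plainly between classes and for which a window is given here. Bcl2, on chromosome 1 between 106538178 and 106714274 (GRCm38, minus strand), is a gene of 176097 bases. Mcl1, on chromosome 3 between 95658788 and 95663176 (plus strand), spans 4389 bases. Bcl2l11, on chromosome 2 between 128126038 and 128162547 (plus strand), spans 36510 bases. The RefSeq windows, build GRCm38.p6, are the 250 bases before the annotated start, written 5′ to 3′ on the strand of the gene: chr1:106714291-106714540 (minus) for Bcl2, chr3:95658471-95658720 (plus) for Mcl1 and chr2:128125788-128126037 (plus) for the first of 2 starts of Bcl2l11. Capitals mark the GC box GGGCGG and the FOXO motif TGTTTAC, each searched on both strands.
Bcl2: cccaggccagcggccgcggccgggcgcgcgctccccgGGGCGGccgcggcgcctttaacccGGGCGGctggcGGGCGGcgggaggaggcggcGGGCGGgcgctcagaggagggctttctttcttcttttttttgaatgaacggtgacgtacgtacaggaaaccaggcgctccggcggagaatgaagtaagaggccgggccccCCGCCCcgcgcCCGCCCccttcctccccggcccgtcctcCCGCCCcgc
Mcl1: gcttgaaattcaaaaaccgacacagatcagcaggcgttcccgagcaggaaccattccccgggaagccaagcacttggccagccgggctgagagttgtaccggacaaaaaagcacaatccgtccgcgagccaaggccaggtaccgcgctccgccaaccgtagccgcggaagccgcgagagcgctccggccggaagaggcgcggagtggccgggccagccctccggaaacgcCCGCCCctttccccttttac
Bcl2l11: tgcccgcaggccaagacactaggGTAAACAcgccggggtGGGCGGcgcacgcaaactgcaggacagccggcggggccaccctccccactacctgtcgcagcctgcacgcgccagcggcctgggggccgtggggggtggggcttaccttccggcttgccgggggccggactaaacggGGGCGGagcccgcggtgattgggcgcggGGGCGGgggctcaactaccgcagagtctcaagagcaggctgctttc
The GC box, a motif of Sp and Klf factors, was matched 7 times for Bcl2, 1 time for Mcl1 and 3 times for Bcl2l11, and it occurs in 32.7% of all 32851 such windows. The 3 windows held 74.8%, 64.4% and 72.0% G and C, against a median of 52.4% over all windows. TGTTTAC was matched 1 time, for Bcl2l11, which is a known target of FOXO factors, and it occurs in 3.17% of windows. The AP-1 motif TGANTCA, bound by Fos and Jun, was found in none of the 3 windows and in 6.75% of all windows. These matches describe letters, and binding was not measured here.

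Each member was compared between classes as a ratio of CPM divided by the median ratio over all genes with at least 20 UMIs in both classes together, so that a value of 1 means a change equal to that of the median gene. A gene was called higher or lower where this ratio was at least 2-fold and its exact 95% interval excluded 1. These intervals cover counting error only, and cells of 1 library are not replicates. The median CPM ratio that was divided out was 1.62 for proximal over distal luminal-like cells and 1.55 for basal over distal luminal-like cells in the ventral library. It was 1.14, 1.13 and 1.28 for proximal luminal-, basal- and stromal-like over distal luminal-like cells in the proximal library.

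The first comparisons set the other 3 classes against distal luminal-like cells of their own library. In ventral proximal luminal-like cells 2 of 8 tested members were called higher, where 10.4% of 12729 genes were, and 0 lower, where 5.09% were. Without the median these shares of all genes were 29.7% and 1.12%, and 4 members were called. In ventral basal-like cells 2 of 8 were called higher against 16.8% of genes and 0 lower against 12.8%, or 31.1% and 6.05% of genes and 5 members without the median. Pmaip1 had too few ventral UMIs to be tested in both comparisons. Of the 9 members tested in the proximal library, 4 were called higher in proximal luminal-like cells, against 22.0% of genes, and 0 lower, against 20.1%. Proximal basal-like cells had 4 higher and 2 lower, against 24.8% and 23.0%. Stromal-like cells had 4 higher and 1 lower, against 27.1% and 20.9%, which became 33.1% and 14.6% of genes without the median. The members called lower in these proximal comparisons were Bcl2l1 and Bak1. With 8 or 9 genes, the shares of members called can be read only as a description.

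Among the other 3 classes fewer members were called. In the ventral library, 1 of 6 tested members, Bcl2l1, was called lower in basal- than in proximal luminal-like cells, where 16.2% of genes were lower and 15% higher. The same comparison in the proximal library called Bcl2l11 higher and both Bcl2l1 and Pmaip1 lower, against 13.7% and 12.5% of genes. Stromal- over proximal luminal-like cells gave Bcl2l11 higher and Pmaip1 lower, against 23.4% and 18.4%. Stromal- over basal-like cells gave 0 members higher and 2 lower, Bid and Pmaip1, against 19.8% and 14.9%, or 24.5% and 11.7% of genes without the median.

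**Figure D1:**
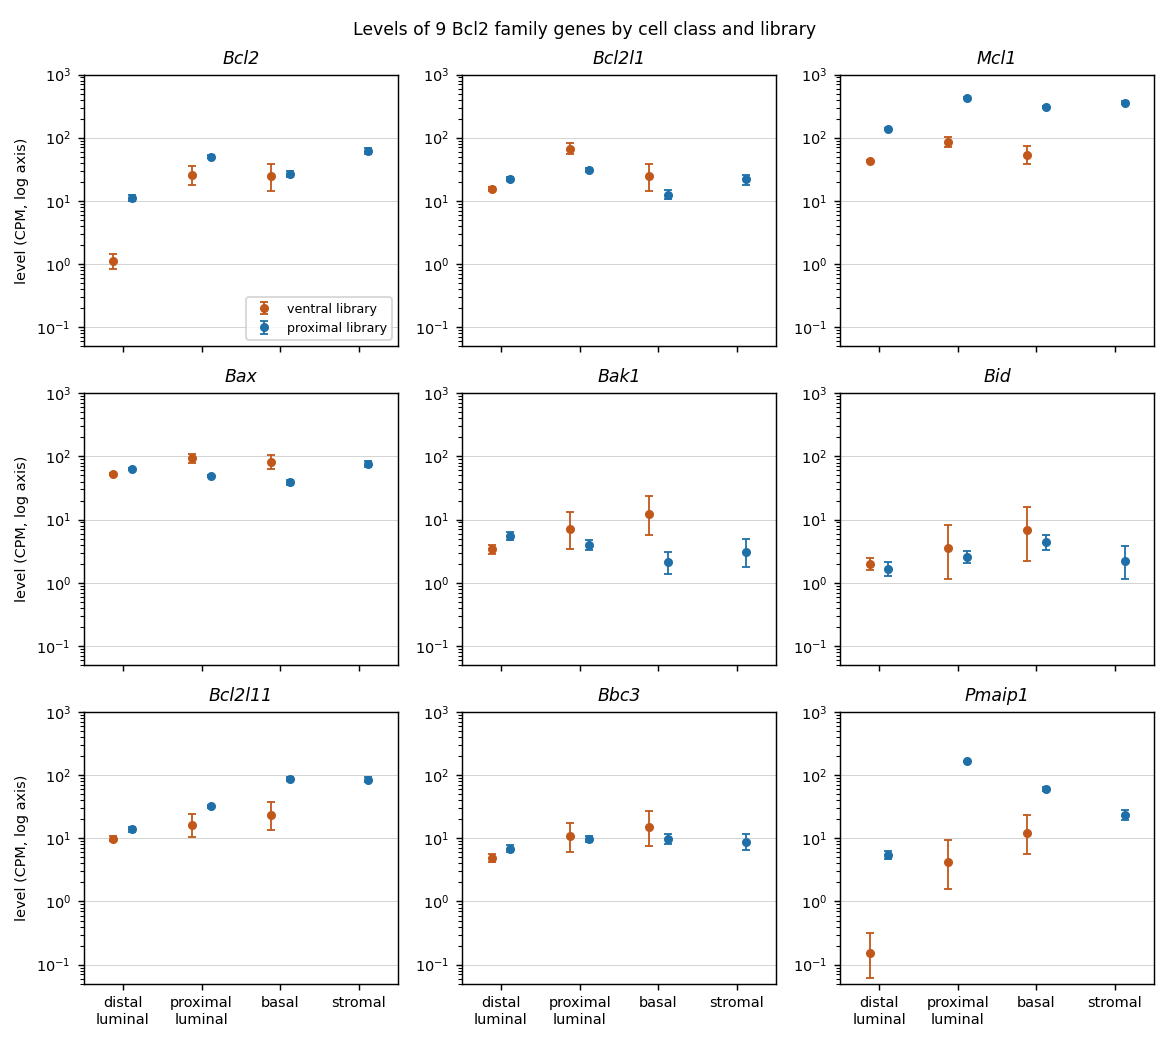
Levels of the 9 genes in CPM (log axis) by cell class, 1 panel per gene, with the ventral library in orange and the proximal library in blue. Bars are exact 95% Poisson intervals for counting error, and no ventral stromal class exists. Bcl2 was lowest in distal luminal-like cells, at 1.11 and 11 CPM in the libraries, and Pmaip1 ranged from 0.155 to 165 CPM.

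Bcl2, the founding member of the anti-apoptotic group, was scarce in distal luminal-like cells. Its ventral level was 1.11 CPM (0.823 to 1.46) in distal luminal-, 25.7 CPM (18.0 to 35.6) in proximal luminal- and 24.5 CPM (14.5 to 38.8) in basal-like cells. Its proximal level was 11 CPM (9.95 to 12.2), 50.4 CPM (47.9 to 53) and 26.5 CPM (23.7 to 29.6) in the same order of classes, and 60.7 CPM (54.4 to 67.6) in stromal-like cells. Distal luminal-like cells were thus the lowest class in both libraries, with an interval apart from all others. The ventral basal over proximal luminal ratio was 1.02 (0.543 to 1.84), an interval too wide to order these classes, and it ran from 0.429 to 1.87 over the other settings. Proximal basal-like cells lay between the distal luminal and the proximal luminal level. The stromal level was the highest in CPM, but relative to the median gene it was 1.04 (0.921 to 1.17) times the proximal luminal level.

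Relative to distal luminal-like cells, Bcl2 was 14.3-fold higher (9.03 to 22.4) in proximal luminal- and 14.2-fold higher (7.82 to 24.8) in basal-like cells of the ventral library. The corresponding ratios in the proximal library were 4.01 (3.58 to 4.49) and 2.13 (1.83 to 2.48), and 4.31 (3.71 to 5.01) for stromal-like cells. The UMI counts behind the ventral values were 50, 36 and 18, and those behind the proximal values 324 to 1556. The share of cells with a Bcl2 UMI was 3.01% of 1628 ventral distal luminal-like cells, at a median of 27498 UMIs per cell, and 29.0% of 93 proximal luminal-like cells, at a median of 14078. After thinning every cell to 1000 UMIs these shares were 0.0615% (0.00156% to 0.342%) and 6.45% (2.40% to 13.5%). Thinned shares in the proximal library were 0.435%, 4.11%, 2.97% and 4.26% in distal luminal-, proximal luminal-, basal- and stromal-like cells. No class of the prostate is known to lack the gene, so free RNA was bounded in another way. If all collagen and Dcn UMIs in proximal distal luminal-like cells came from free RNA, such RNA would bring at most 5.31 CPM of Bcl2, 48.1% of its level there. This bound is too high, since it gives 11.9 CPM of Pmaip1 in these cells, where 5.52 CPM was found.

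Within the ventral distal luminal-like cells, 1 cluster of 93 cells led by Msmb and Pbsn held Bcl2 at 6.56 CPM (3.75 to 10.7). The other distal luminal-like clusters lay between 0.360 and 1.46 CPM. The Msmb-led cluster was also the highest of the distal luminal-like clusters in the proximal library, at 17.1 CPM (14.7 to 19.7), and the one led by Prr9 and Ms4a5 the lowest, at 3.98 CPM (2.05 to 6.95). The ventral proximal luminal-like cells were made of unlike clusters. The 43 cells led by Wfdc2, Ppp1r1b and Psca held Bcl2 at 55.8 CPM (37.4 to 80.2), inside the 39.9 to 91.2 CPM spanned by proximal luminal-like clusters of the proximal library. The 50 cells led by the acute-phase gene Saa1 held 7.94 CPM (3.19 to 16.4). None of the 10 leading genes of this cluster was a proximal luminal marker, which was also so for the Tff3-led and Prol1-led clusters of the proximal library. The Wfdc2-led cluster had the highest stress list sum of the ventral clusters described, 22457 CPM, against 8787 CPM in the Saa1-led cluster and 2668 to 6951 CPM in distal luminal-like clusters. Its median mitochondrial share was 5.22%, against 3.23% and 2.12% to 2.89%. The part of both in its values was not tested. Without the Saa1-led cells the ventral Bcl2 ratio to distal luminal-like cells was 24.5, and with a mitochondrial limit of 5% in place of 10% it was 7.50. After thinning to 1000 UMIs the ventral ratios of Bcl2 were 66.0 for proximal luminal- and 34.4 for basal-like cells, but too few UMIs were left for a call. Without genes over 1% of a class the proximal basal ratio was 1.87 and not called. In proximal basal-like cells, Bcl2 was highest in the cluster led by Trp63, at 50.3 CPM (39.5 to 63.2), and lowest in the one led by Ivl, Grp and Aqp3, at 14.8 CPM (11.4 to 19.0).

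Bcl2l1 (chromosome 2, 152780668 to 152831728, minus strand), which encodes the anti-apoptotic Bcl-xL, had its highest level in ventral proximal luminal-like cells. Its ventral levels were 15.4 CPM (14.3 to 16.6) in distal luminal-, 67.1 CPM (54.2 to 82.1) in proximal luminal- and 24.5 CPM (14.5 to 38.8) in basal-like cells. The proximal levels were 22.4 CPM (20.8 to 24.0), 30.8 CPM (28.9 to 32.8) and 12.5 CPM (10.6 to 14.7), and 21.8 CPM (18.1 to 26.1) in stromal-like cells. Proximal luminal-like cells were the highest class in both libraries, and the stromal and distal luminal intervals overlapped. The ventral proximal over distal luminal ratio was 2.68 (2.14 to 3.33) and held under all 16 other settings. Most of it came from the Wfdc2-led cluster, at 135 CPM against 27.2 CPM in the Saa1-led one. The same ratio in the proximal library was 1.21 (1.10 to 1.33), which was not called. Basal-like cells were lower than proximal luminal-like cells in both libraries, at 0.389 (0.221 to 0.649) and 0.409 (0.342 to 0.485). Against distal luminal-like cells, proximal basal-like cells had a ratio of 0.496 (0.414 to 0.591), which lies at the 2-fold limit. Without the median it was 0.559, and the call was lost.

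Mcl1, a short-lived anti-apoptotic protein made from a readily induced RNA, was higher outside distal luminal-like cells in the proximal library. Its ventral level was 42.6 CPM (40.7 to 44.5) in distal luminal-, 86.4 CPM (71.7 to 103) in proximal luminal- and 53.1 CPM (37.8 to 72.6) in basal-like cells. Its proximal level was 137 CPM (134 to 141), 428 CPM (421 to 435), 303 CPM (293 to 313) and, in stromal-like cells, 359 CPM (344 to 375). All 4 proximal levels were set apart by their intervals, whereas the ventral basal interval overlapped both others. By cluster, the classes of the proximal library overlapped. Clusters ran from 87.6 to 163 CPM in distal luminal-, 149 to 489 CPM in proximal luminal-, 201 to 343 CPM in basal- and 269 to 446 CPM in stromal-like cells. The lowest proximal luminal value was that of the Gm12703-led cluster. The proximal ratios to distal luminal-like cells were 2.73 (2.64 to 2.82) for proximal luminal-, 1.95 (1.87 to 2.04) for basal- and 2.05 (1.94 to 2.16) for stromal-like cells. The basal value fell just short of the 2-fold limit and was called under 7 of 15 other settings. The ventral ratios were 1.25 (1.03 to 1.5) and 0.804 (0.570 to 1.10), neither of which was called. After thinning to 1000 UMIs, 30.2% (27.4% to 33.0%) of proximal luminal-like cells of the proximal library still held a Mcl1 UMI, against 10.6% (8.40% to 13.1%) of distal luminal-like cells.

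**Figure D2:**
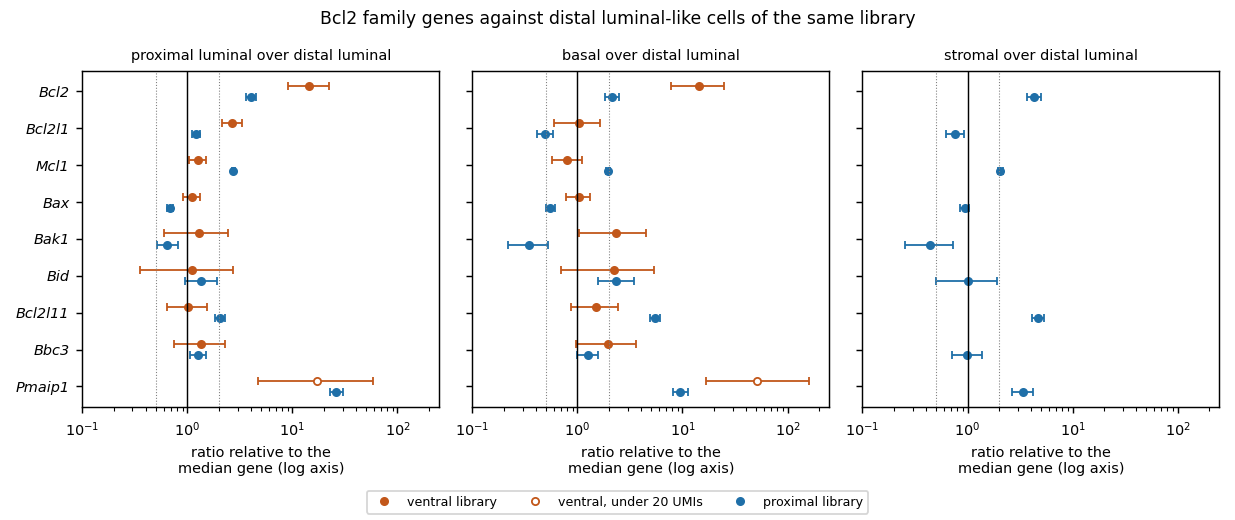
Ratios of the 9 genes to distal luminal-like cells of the same library, divided by the median ratio of all genes (log axis), for proximal luminal-, basal- and stromal-like cells. Points are ratios with exact 95% intervals for counting error, open points had under 20 UMIs, and dotted lines mark 2-fold. Bcl2 lay right of the 2-fold line in all 5 comparisons, and Bcl2l11 in the 3 of the proximal library alone.

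Bax (chromosome 7, 45461697 to 45466898, minus strand), the effector that moves from the cytosol to mitochondria, was called in no comparison within a library. Its ventral levels were 52.2 CPM (50.1 to 54.3), 93.5 CPM (78.2 to 111) and 83.1 CPM (63.6 to 107) in distal luminal-, proximal luminal- and basal-like cells. Its proximal levels were 63.4 CPM (60.7 to 66.1), 49.0 CPM (46.5 to 51.5) and 39.4 CPM (35.9 to 43.1), and 76.0 CPM (68.9 to 83.6) in stromal-like cells. The order of the classes thus differed between libraries in CPM. The lowest ratio was that of basal- over distal luminal-like cells in the proximal library, at 0.551 (0.498 to 0.609), which was 0.482 and called without genes over 1% of a class. The highest was that of stromal- over basal-like cells, at 1.64 (1.44 to 1.87), with intervals of the levels far apart. Among proximal distal luminal-like clusters, Bax was highest in the one led by Prr9 and Ms4a5, at 116 CPM (104 to 129), where Bcl2 was lowest.

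Bak1 (chromosome 17, 27019810 to 27029009, minus strand), the effector that resides in the mitochondrial membrane, was rare, with 9 to 186 UMIs per class. Ventral levels were 3.41 CPM (2.90 to 4.00), 7.14 CPM (3.42 to 13.1) and 12.3 CPM (5.61 to 23.3) in distal luminal-, proximal luminal- and basal-like cells. Proximal levels were 5.46 CPM (4.70 to 6.30), 4.02 CPM (3.34 to 4.79) and 2.13 CPM (1.39 to 3.12), and 3.09 CPM (1.80 to 4.95) in stromal-like cells. The epithelial classes therefore ran in opposite order in the libraries, although the ventral proximal luminal interval overlapped both of its neighbours. Ventral basal-like cells were called higher than distal luminal-like cells, at 2.31 (1.04 to 4.50) from 9 UMIs. Proximal basal-like cells were called lower, at 0.346 (0.220 to 0.523), as were stromal-like cells, at 0.443 (0.253 to 0.730). The stromal value turned to 2.41 after thinning to 1000 UMIs, where it rested on 2 stromal and 1 distal luminal cell with a UMI, and was not called.

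Bid (chromosome 6, 120891930 to 120916853, minus strand), which links death receptors to mitochondria after cleavage by caspase-8, was rare in every class, with 5 to 89 UMIs. Its ventral levels were 1.97 CPM (1.58 to 2.43), 3.57 CPM (1.16 to 8.33) and 6.81 CPM (2.21 to 15.9) in distal luminal-, proximal luminal- and basal-like cells, the upper pair from 5 UMIs each. Its proximal levels were 1.67 CPM (1.27 to 2.17), 2.56 CPM (2.03 to 3.19) and 4.42 CPM (3.32 to 5.77), and 2.18 CPM (1.13 to 3.81) in stromal-like cells. Basal-like cells were highest in both libraries, although the ventral intervals of all 3 classes overlapped, and those of basal- and stromal-like cells did in the proximal library. In the proximal library Bid was called higher in basal- than in distal luminal-like cells, at 2.34 (1.58 to 3.46), and lower in stromal- than in basal-like cells, at 0.420 (0.204 to 0.794). The annotated span of Bid overlaps that of Bcl2l13 on the opposite strand, and whether counting used strand is not given in the sources used here. Other annotated genes also overlap the spans of Bcl2, Bax and Bak1.

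Bcl2l11, which encodes the activator Bim, was higher in basal- and stromal-like cells than in both luminal classes of the proximal library. Its proximal levels were 14.0 CPM (12.7 to 15.3) in distal luminal-, 32.3 CPM (30.3 to 34.3) in proximal luminal-, 86.9 CPM (81.7 to 92.3) in basal- and 84.2 CPM (76.7 to 92.2) in stromal-like cells. Basal- and stromal-like cells shared the top rank with overlapping intervals. The ventral levels were 9.89 CPM (8.99 to 10.9), 16.4 CPM (10.4 to 24.6) and 23.2 CPM (13.5 to 37.1), in the same order of classes but with each interval overlapping the next. The proximal basal over distal luminal ratio was 5.51 (4.94 to 6.16) and the stromal ratio 4.72 (4.14 to 5.38). By the collagen and Dcn bound, free RNA could bring at most 44.9% of the distal luminal level of Bcl2l11 and 34.2% of that of Mcl1. As given for Bcl2, this bound is too high. Against proximal luminal-like cells the basal and stromal ratios were 2.71 (2.48 to 2.95) and 2.25 (2.01 to 2.52). The proximal luminal over distal luminal ratio was 2.03 (1.81 to 2.26), at the 2-fold limit, and 1.77 when genes holding over 1% of the UMIs of a class were left out. Ventral ratios to distal luminal-like cells were 1.02 (0.641 to 1.55) and 1.51 (0.871 to 2.44), and neither was called.

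The proximal luminal-like level of Bcl2l11 was an average of unlike clusters. The 374 cells led by Clca1 and Areg held 54.7 CPM (50.1 to 59.6), and the 44 cells led by Gm12703 held 76.0 CPM (57.2 to 98.9), whereas the other 3 clusters held 19.0 to 23.5 CPM. Basal-like clusters ranged from 61.4 CPM in the one led by Ivl, Grp and Aqp3 to 101 CPM in the one led by Krt14. Stromal-like clusters of at least 50 cells were nearly level, from 74.6 to 85.8 CPM. Ventral distal luminal-like clusters ranged from 4.39 CPM (3.02 to 6.17) in one led by the interferon-induced genes Ifit1 and Rsad2 to 20.3 CPM (15.8 to 25.8) in one led by Abcb10.

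**Figure D3:**
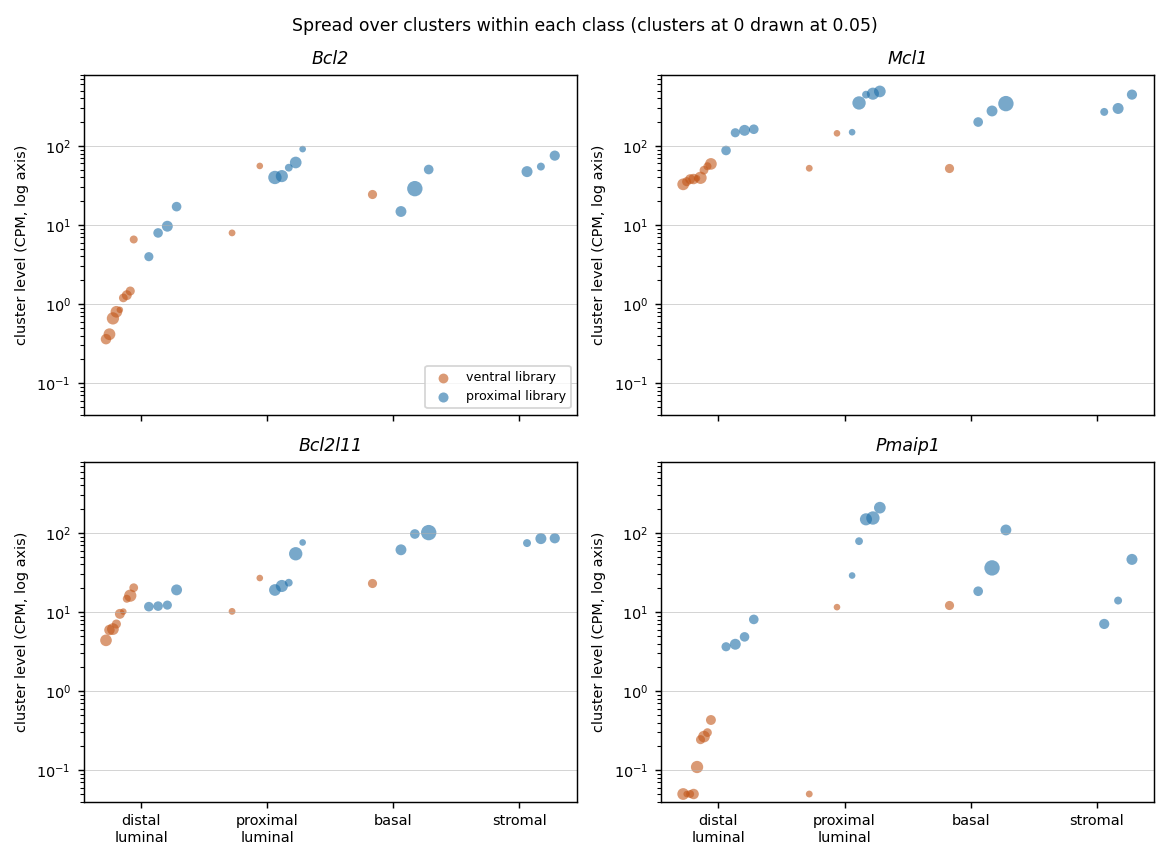
Levels of Bcl2, Mcl1, Bcl2l11 and Pmaip1 in single clusters of the 4 classes in CPM (log axis), orange for the ventral and blue for the proximal library, for clusters of at least 39 cells. The area of a point grows with its number of cells and clusters without a UMI are drawn at 0.05. Ventral proximal luminal-like clusters were spread from 7.94 to 55.8 CPM for Bcl2, and stromal-like clusters from 7.08 to 46.4 CPM for Pmaip1.

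Bbc3 (chromosome 7, 16308393 to 16318205, plus strand), which encodes Puma, a target of p53 that binds every anti-apoptotic member, was called in no comparison within a library. Its ventral levels were 4.90 CPM (4.28 to 5.59), 10.7 CPM (5.99 to 17.7) and 15 CPM (7.48 to 26.8) in ventral distal luminal-, proximal luminal- and basal-like cells. The proximal levels were 6.87 CPM (6.02 to 7.81), 9.88 CPM (8.80 to 11) and 9.74 CPM (8.07 to 11.7), and 8.72 CPM (6.43 to 11.6) in stromal-like cells. The intervals of the 3 upper proximal classes overlapped, and the stromal one overlapped the distal luminal one as well. The ventral distal luminal interval lay below both others. The ventral basal over distal luminal ratio came nearest to the limit, at 1.97 (0.969 to 3.59) from 11 basal UMIs, and was called under 4 of 14 other settings.

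Pmaip1, which encodes Noxa, the BH3-only protein that binds Mcl1, had the widest range of all members. Its proximal level was 5.52 CPM (4.76 to 6.37) in distal luminal-, 165 CPM (161 to 170) in proximal luminal-, 59.5 CPM (55.3 to 64.0) in basal- and 23.6 CPM (19.7 to 28.1) in stromal-like cells. All 4 intervals were apart. Its ventral level was 0.155 CPM (0.0624 to 0.320), 4.28 CPM (1.57 to 9.32) and 12.3 CPM (5.61 to 23.3) in distal luminal-, proximal luminal- and basal-like cells, from 7, 6 and 9 UMIs. There basal-like cells had the highest value, with an interval that overlapped that of proximal luminal-like cells.

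The proximal luminal over distal luminal ratio of Pmaip1 in the proximal library was 26.3 (22.7 to 30.5), and the basal and stromal ratios were 9.57 (8.14 to 11.3) and 3.36 (2.66 to 4.22). The distal luminal level lay under the 11.9 CPM that the collagen and Dcn bound allows for free RNA. A bound above the level itself is too high for these cells, so it cannot separate this level from background. Dcn stood at 106 CPM and Col1a1 at 1.76 CPM there, against 5943 and 659 CPM in stromal-like cells. With 5% of each class's UMIs subtracted as free RNA of its library, the proximal luminal, basal and stromal ratios became 81.0, 28.4 and 8.83. The basal ratio was 5.53 for cells of at least 1000 genes and 5.70 at resolution 2. Against proximal luminal-like cells, Pmaip1 was lower in basal-like cells at 0.362 (0.335 to 0.391) and in stromal-like cells at 0.123 (0.103 to 0.147). The stromal over basal ratio was 0.338 (0.278 to 0.408), a call lost under 3 of 15 other settings, with 0.609 for cells of at least 1000 genes, 0.579 with the highest doublet scores removed and 0.569 at resolution 2. After thinning to 1000 UMIs, 13.1% (11.1% to 15.3%) of proximal luminal-, 4.95% (3.63% to 6.57%) of basal-, 2.71% (1.49% to 4.51%) of stromal- and 0.581% (0.158% to 1.48%) of distal luminal-like cells held a UMI. Of the 1073 proximal luminal-like cells, 33.2% held 5 or more UMIs before thinning, and no single cell held more than 0.961% of the total. Of the stress list, Hsp90aa1 stood at 1336, 2921, 2463 and 1806 CPM and Jund at 1154, 2245, 1356 and 1718 CPM in distal luminal-, proximal luminal-, basal- and stromal-like cells of the proximal library. Both were highest in proximal luminal-like cells, as Pmaip1 was, and so were Fosb, Hspa1a, Hspa1b and Zfp36 of that list. In the same order of classes Fos, at 1289, 705, 906 and 2811 CPM, and Ier2, at 1235, 334, 423 and 463 CPM, were lowest there. Jun, Junb and Dusp1 were lowest there as well. The part of these genes in the Pmaip1 levels was not tested.

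Within the proximal luminal- and basal-like classes of the proximal library, the cluster highest in Pmaip1 was not the one highest in Bcl2l11. Across proximal luminal-like clusters of the proximal library, Pmaip1 ranged from 29.0 CPM (18.0 to 44.3) in the Gm12703-led cluster, where Bcl2l11 was highest, to 209 CPM (201 to 218) in the cluster led by Arl14 and Krt23. The latter had the lowest Bcl2l11 of these clusters, 19.0 CPM (16.6 to 21.8). The Clca1-led cluster was high in both Pmaip1 and Bcl2l11, at 155 and 54.7 CPM. The Prol1-led cluster was lower in both, at 78.9 and 23.5 CPM. Among basal-like clusters, Pmaip1 was highest in the one led by Ivl, Grp and Aqp3, at 109 CPM (99.6 to 120), where Bcl2 and Bcl2l11 were lowest. This cluster, whose next-best class by markers was periurethral, held 465 of the 727 Pmaip1 UMIs of basal-like cells. Pmaip1 was at 36.2 CPM (31.7 to 41.2) in the basal-like cluster led by Krt14 and at 18.4 CPM (12.1 to 26.7) in the one led by Trp63. Among stromal-like clusters it was 46.4 CPM (37.8 to 56.4) in the cluster led by Cxcl14 and Rorb, and 7.08 CPM (4.13 to 11.3) in the one led by Tmem100 and Lgr5. Bcl2l11 was level in these clusters, at 85.0 and 85.8 CPM. Cells were clustered without these genes, yet clusters of 1 library are not replicates and no test was made.

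Macrophages and T cells are rich in some members, and their markers were scarce in the 4 classes. In 79 macrophage-like cells of the proximal library, Bcl2l11 stood at 257 CPM (226 to 291), Pmaip1 at 150 CPM (127 to 177) and Bax at 281 CPM (249 to 317). Bcl2l11 reached 535 CPM (441 to 642) in 27 T or NK-like cells. The 8 macrophage markers summed to 8383 CPM in macrophage-like cells, and to 8.95, 16.3, 13.8 and 22.0 CPM in proximal distal luminal-, proximal luminal-, basal- and stromal-like cells. The 7 T or NK markers summed to 1976 CPM in their own cells and to between 0.727 and 1.47 CPM in these classes.

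Anti-apoptotic UMIs were set against effector UMIs within each class, as the sum of Bcl2, Bcl2l1 and Mcl1 divided by the sum of Bax and Bak1. Since genes differ in capture, only differences of this ratio between classes can be read. It was 1.06 (1.01 to 1.12), 1.78 (1.44 to 2.20) and 1.07 (0.763 to 1.51) in ventral distal luminal-, proximal luminal- and basal-like cells. It was 2.48 (2.37 to 2.61), 9.61 (9.13 to 10.1) and 8.23 (7.51 to 9.05) in those of the proximal library, and 5.59 (5.04 to 6.20) in stromal-like cells. Proximal luminal-like cells had the highest and distal luminal-like cells the lowest ratio in both libraries, although the ventral basal and distal luminal intervals overlapped. The ventral proximal luminal rank came from the Wfdc2-led cluster of 43 cells, with 3.41 (2.48 to 4.76). The Saa1-led cluster of 50 cells had 0.856 (0.623 to 1.17), an interval that overlaps that of distal luminal-like cells. In the proximal library, proximal luminal- and basal-like clusters were not set apart. Proximal luminal-like clusters led by Arl14 and Tff3 had 12.7 and 10.2. Those led by Prol1, Clca1 and Gm12703 had 7.85, 7.33 and 4.24. Basal-like clusters led by Ivl, Krt14 and Trp63 had 9.59, 9.20 and 3.94. Leaving out Mcl1 narrowed the difference between the libraries. The ratios were then 0.297, 0.922 and 0.514 in the ventral library, and 0.486, 1.53, 0.941 and 1.04 in the proximal library. The order of the 3 epithelial classes by these values stayed the same in both. Bcl2 over Bax alone was 0.0212 (0.0157 to 0.0281), 0.275 (0.185 to 0.400) and 0.295 (0.164 to 0.506) in ventral distal luminal-, proximal luminal- and basal-like cells. The proximal values were 0.174 (0.156 to 0.194), 1.03 (0.958 to 1.11) and 0.674 (0.583 to 0.777), and 0.799 (0.690 to 0.925) in stromal-like cells.

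**Figure D4:**
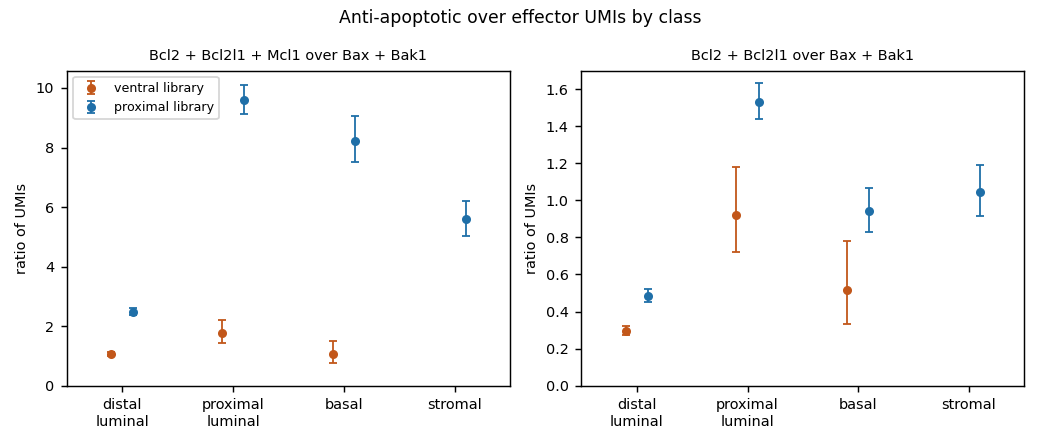
Ratio of anti-apoptotic to effector UMIs by class, with Mcl1 (left) and without it (right), orange for the ventral and blue for the proximal library. Bars are exact 95% intervals for counting error. Proximal luminal-like cells lay highest in both libraries, the ventral value resting on 1 of 2 clusters, at 1.78 and 9.61 with Mcl1 and at 0.922 and 1.53 without it.

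Between libraries, the same class was compared with the proximal library in the numerator, where kit version moves together with region. The makeup of the classes differed as well. Sbp and Spink1 took 41.0% to 51.1% of UMIs in every ventral distal luminal-like cluster but the Msmb-led one, which had 10.8%. In the proximal library they took 52.2% in the Spink5-led cluster, 161 of 694 cells, and 0.141% to 2.11% in the others. The Spink5-led cluster held Bcl2 at 7.93 CPM, Pmaip1 at 4.86 CPM and Bid at 1.79 CPM. The part of this makeup in the distal luminal ratios was not tested. Of the 16 stress list genes, 4 were called higher and 0 lower in distal luminal-like cells, against 18.5% and 10.8% of all genes. Proximal luminal-like cells had 2 higher and 2 lower, and basal-like cells 1 and 3, against the shares of all genes given below. The part of dissociation stress in these ratios was not tested. The median CPM ratios divided out were 1.84 for distal luminal-, 1.28 for proximal luminal- and 1.26 for basal-like cells. In distal luminal-like cells Bcl2 at 5.40 (4.01 to 7.41) and Pmaip1 at 19.3 (9.18 to 48.6) were called higher and Bid at 0.460 (0.324 to 0.648) lower. The Bid call was lost under 5 of 15 other settings, with a ratio of 0.848 when not divided by the median. These are 2 and 1 of 9 members, against 18.5% and 10.8% of 15434 genes, or 44.1% and 2.51% of genes without the median. Proximal luminal-like cells had Mcl1 at 3.86 (3.23 to 4.66) and Pmaip1 at 30.1 (13.8 to 82.0) called higher. There Bcl2l1 at 0.358 (0.289 to 0.448), Bax at 0.409 (0.342 to 0.492) and Bak1 at 0.439 (0.231 to 0.938) were called lower. The background shares were 13.6% and 19.4% of genes, or 19.8% and 12.4% without the median, where 3 members were called. The Bax call was lost under 6 and the Bak1 call under 8 of 16 other settings, among them leaving out the Saa1-led ventral cluster, with 0.541 and 0.521.

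Basal-like cells differed between the libraries in 6 members, against a background of 15.7% higher and 21.8% lower, or 22.0% and 15% without the median. Mcl1 at 4.51 (3.30 to 6.36), Pmaip1 at 3.85 (2.02 to 8.45) and Bcl2l11 at 2.97 (1.85 to 5.12) were higher in the proximal library. Bax at 0.375 (0.287 to 0.499), Bcl2l1 at 0.405 (0.248 to 0.701) and Bak1 at 0.138 (0.0625 to 0.334) were lower. Not divided by the median, Bcl2l1 missed the 2-fold limit, at 12.5 against 24.5 CPM. Bcl2 was not called, at 0.857 (0.534 to 1.46). With no UMI minimum, genes without ventral UMIs entered the median with infinite ratios, and the higher median lowered the ratios of all members together. Bcl2 then became 0.456 and was called lower, Bcl2l11 became 1.58 and was not called, and Mcl1 became 2.40. That setting called 8 members in basal-like and 7 in proximal luminal-like cells, with Bid and Bbc3 added as lower in both. In proximal luminal-like cells Mcl1 became 2.14 and Bcl2l1 0.198. The share of all genes called under that setting is not given here, so these counts are not results about the members. Pmaip1 was called higher in all 3 classes. Its distal luminal level in the proximal library lay under the free RNA limit given above, which cannot separate its ratio there from background. Mcl1 was called in proximal luminal- and basal-like cells, with 1.75 (1.66 to 1.85) in distal luminal-like cells, which became 3.23 and was called when not divided by the median, and 2.17 without genes over 1% of a class.

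The wider pathway was followed through 57 other genes in 8 lists, which cover further Bcl2 relatives, caspases and their regulators, mitochondrial channels, death receptors, p53 targets and the integrated stress response. In ventral proximal luminal- and basal-like cells 3 and 8 of 51 tested genes were higher than in distal luminal-like cells, and 1 and 9 lower, against 10.4% and 16.8% of all genes higher and 5.09% and 12.8% lower. Proximal luminal-, basal- and stromal-like cells of the proximal library had 5, 13 and 8 of 52 tested genes higher and 16, 14 and 15 lower, against 22.0%, 24.8% and 27.1% of all genes higher and 20.1%, 23.0% and 20.9% lower. Of the 11 genes of the p53 list, 5 were called higher and 0 lower in ventral basal- over distal luminal-like cells, where 16.8% of all genes were higher. Without the median 31.1% of all genes were higher there, and counts of these lists under that scaling are not given here. In the same comparison 8 of the 16 stress list genes were called higher, and their part was not tested. In the proximal library 7 were called higher and 0 lower, where 24.8% of all genes were higher. In proximal luminal- over distal luminal-like cells 2 were called higher and 0 lower in the ventral library, and 1 higher and 1 lower in the proximal library, where stromal-like cells had 4 higher and 1 lower. The list medians were 0.72 and 1.62 for the basal comparisons, -0.11 and 0.43 for the proximal luminal ones and 0.16 for the stromal one on the log2 scale, against 0 for all genes by construction. Cdkn1a, the cell-cycle inhibitor p21, stood at 70.7 CPM in distal luminal- and 656 CPM in basal-like cells of the proximal library, a ratio of 8.22 (7.86 to 8.61), and its proximal luminal ratio was 6.14 (5.88 to 6.41). Phlda3, a p53 target that restrains Akt, had basal over distal luminal ratios of 35.8 (29.4 to 43.5) in the ventral and 7.61 (6.65 to 8.74) in the proximal library. Its stromal over distal luminal ratio was 10.9 (9.42 to 12.5), and the part of fibroblast RNA in the ventral basal value was not tested. Of the members, Bbc3, Pmaip1 and Bax are known p53 targets as well, and among them Pmaip1 alone was called in the proximal comparison.

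Of 5 genes of the integrated stress response, 4 were called lower in the proximal library in each of proximal luminal-, basal- and stromal-like cells, where 20.1%, 23.0% and 20.9% of all genes were lower. In the ventral library 1 of 5 was called lower in each of proximal luminal- and basal-like cells, where 5.09% and 12.8% of all genes were lower. Asns, which makes asparagine, stood at 101 CPM in proximal distal luminal-like cells and at 6.99 CPM in proximal luminal-like cells, a ratio of 0.0610 (0.0529 to 0.0701). Ddit3, which encodes Chop, had a ratio of 0.208 (0.194 to 0.223) in the same comparison. Among the less studied relatives, Bok, which can open mitochondria without Bax and Bak1, had its highest level in stromal-like cells. Its level was 101 CPM in stromal-, 20.1 CPM in basal- and 4.37 CPM in distal luminal-like cells of the proximal library, a stromal over distal luminal ratio of 18.2 (15.1 to 21.9). Bcl2l14 ran the other way, at 60.5 CPM in distal luminal- and 2.18 CPM in stromal-like cells, a ratio of 0.0282 (0.0146 to 0.0494). Bik, a BH3-only gene, was at 19.6 and 0.727 CPM in these classes, the latter from 4 UMIs.

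The genes most like each member were found by Pearson correlation of log2(CPM + 10) over the 7 class and library profiles, among 12824 genes. The profiles share libraries, depth and kit, and with 7 points the values are a description. Bcl2 was most like Wdfy1 (0.99), Plk3 (0.98) and Stk24 (0.98), and Mcl1 like Ing3, Appbp2 and Riok2 (0.99 each). Bcl2l11 was most like Appl1, Mapkbp1 and Clcf1 (0.99 each), and Pmaip1 like the integrin Itgb6 (0.99), Cemip2 (0.99) and Nabp1 (0.98). Bcl2l1 was most like Limk2 (0.99), and Bax like Setd6 (0.99). The 16 genes of the stress list were correlated in the same way, and some ran close to members. Bcl2 had 0.927 with Hspa1a, 0.897 with Jund and 0.876 with Fosb, but 0.506 with Fos and -0.275 with Ier2. Mcl1 had 0.915 with Hspa1b and 0.879 with Fosb, Bcl2l11 had 0.895 with Ier3, and Pmaip1 had 0.878 with Hsp90aa1. With Ier2, Mcl1, Bcl2l11 and Pmaip1 had -0.529, -0.456 and -0.582. The part of dissociation stress in these patterns was not tested. The other members, Bak1, Bid and Bbc3, rested on 301 to 953 UMIs in all, and were most like Dbnl, Scnn1g and Nrbp2.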

How the data were processed

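Cells of 2 dissociated mouse prostate samples were profiled, 1 library per region. The authors deposited raw UMI counts per gene and barcode, made with Cell Ranger 7.0.0 on mm10 per the submitters' processing notes. The annotation, and whether intronic reads were counted (the default of that version, which would favour long genes such as Bcl2), are not given in the sources used here. Members, lists and tests were chosen with earlier results of these data known.

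Barcodes with under 500 genes or over 10% mitochondrial UMIs were removed, leaving 1995 ventral and 3709 proximal cells. Scrublet called 7 and 4 of them doublets. So low a share is not a working call, and the number of doublets left was not measured. Cells were scaled to 10000 UMIs, reduced to 30 components of 2000 variable genes without the members and listed genes, and clustered (Leiden, resolution 1, 15 neighbours, seed 0; scanpy 1.11.5) into 15 ventral and 21 proximal clusters. Names came from markers of 23 classes, and a cluster needed at least 3 own markers in 25% of its cells and no majority of another class among its 10 leading genes. The names were rebuilt here and can differ from those of the study.

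UMIs were summed per class and given as CPM with exact Poisson intervals, shares with exact Clopper-Pearson intervals, and ratios with exact conditional intervals, all at 95% (scipy 1.17.1). No p-values were computed. Of genes outside the members, up to 3 per comparison and direction with the largest called ratio were eligible to be named, and the 3 genes most like each member. In simulations of the 9 comparisons within a library, each on 32285 genes with 200 changed 4-fold, 65.5% (ventral basal over distal luminal) to 96.5% of changed genes were called, and intervals held the true ratio for 95.6% to 97.3% of tested genes. Simulated counts were Poisson draws from a pooled profile, the model that the intervals assume. They held no spread between cells, clusters or animals, so they do not show how the intervals cover such spread. The 15 other settings covered scaling, cell weights, UMI minimum, fold limit, cell filters, doublets, resolution, joint clustering, unnamed clusters, free RNA, secretory RNA and depth. Leaving out the Saa1-led cluster was chosen after seeing the data.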

Additional observations from a re-analysis of the deposited data

Results flagged for a closer look

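Bak1 differed in direction between the libraries when basal-like cells were set against distal luminal-like cells. The ratio was 2.31 (1.04 to 4.50) in the ventral library, from 9 basal UMIs, and 0.346 (0.220 to 0.523) in the proximal library, from 26. Each interval excludes 1, on opposite sides. The ventral call was lost under 3 of 14 other settings: without genes over 1% of a class, where the ratio was 1.90, without cells over 5% Sbp and Spink1, and after thinning to 1000 UMIs, where the ratio was 12.9 from few UMIs. The proximal call was lost after thinning, where the ratio was 0.688. The difference between the libraries was not tested, since each region had 1 library.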

How the results depend on the processing

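Of 41 calls of a member in the 12 comparisons, 40 kept their direction under every alternative run and 19 were also called under every one. The exception was Bak1 in stromal- over distal luminal-like cells, which turned to 2.41 when cells were thinned to 1000 UMIs, from 3 UMIs in all. The cause of the following changes was not tested, except that thinning leaves fewer UMIs. The share of all genes called is given here only for the main setting and, in some comparisons, without the median. The counts under the other settings therefore cannot be read against other genes. Thinning moved the number of members called to 1 for proximal over distal luminal-like and 0 for basal over distal luminal-like and basal over proximal luminal-like cells in the ventral library. It gave 3 for stromal over distal luminal-like cells, and between libraries 0 for distal luminal-, 3 for proximal luminal- and 2 for basal-like cells. Ratios not divided by the median called 4 and 5 members in ventral proximal luminal- and basal-like over distal luminal-like cells, and 3 between libraries in proximal luminal-like cells. Ventral basal over distal luminal-like cells called 1 member without genes over 1% of a class, 1 without cells over 5% Sbp and Spink1, and 5 with no UMI minimum. A 1.5-fold limit gave 2 for ventral and 6 for proximal basal over proximal luminal-like cells, 4 for stromal over basal-like cells and 5 for distal luminal-like cells between libraries. Requiring 1000 genes per cell gave 2 for ventral basal over proximal luminal-like, 1 for stromal over basal-like and 3 for proximal luminal-like cells between libraries. Stromal over basal-like cells called 1 member with the highest doublet scores removed and 1 at resolution 2. Proximal luminal-like cells between libraries called 3 without cells over 5% Sbp and Spink1, 3 after joint clustering and 3 without the Saa1-led cluster, and ventral basal over proximal luminal-like cells called 2 without it. Joint clustering gave no ventral basal-like class, so 3 comparisons had no value there. No paired analysis was possible because each region had 1 library. Depth limits Bak1, Bid, Bbc3 and ventral Pmaip1, which rested on 5 to 15 UMIs in ventral proximal luminal- and basal-like cells.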

Other observations

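The barcodes removed for more than 10% mitochondrial UMIs, 96 ventral and 402 proximal, were compared with the kept cells, with each member measured as a share of UMIs without those of mitochondrial genes. Proximal Bcl2l1 was 1.84 times (1.55 to 2.17) and Bcl2 1.58 times (1.34 to 1.86) as high as in kept cells, Bcl2l11 1.36 times (1.15 to 1.59), Bid 2.09 times (1.18 to 3.47), Bbc3 1.51 times (1.07 to 2.08), Mcl1 1.13 times (1.06 to 1.21) and Pmaip1 0.793 times (0.680 to 0.920). In the ventral library Bbc3 was 4.88 times (2.08 to 9.76), Bcl2l11 4.49 times (2.50 to 7.48) and Bcl2l1 3.54 times (2.12 to 5.56) as high, from 8, 15 and 19 UMIs. The intervals of proximal Bax and Bak1 and of ventral Bcl2, Mcl1, Bax, Bak1, Bid and Pmaip1 included 1. The removed barcodes mix all classes, and they held a median of 3416.5 (ventral) and 5103.5 (proximal) UMIs.

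An unnamed cluster of 314 proximal cells led by haemoglobin genes, whose best-scoring class was proximal luminal, held Bcl2 at 65.2 CPM (59.8 to 71.0), Mcl1 at 395 CPM (382 to 409), Pmaip1 at 96.3 CPM (89.7 to 103) and Bcl2l11 at 44.8 CPM (40.4 to 49.6). Its stress list summed to 26514 CPM, above the 4 named classes of that library. An unnamed cluster of 67 ventral cells with a median of 0.135% mitochondrial UMIs held Bax at 70.4 CPM (52.9 to 91.8) and Mcl1 at 14.3 CPM (7.15 to 25.6). Bcl2 and Pmaip1 had 0 UMIs there, which allows up to 4.81 CPM each by the exact interval.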
